A study of Mus musculus with 6 samples.

Results

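The 10 endothelial and angiogenesis genes were chosen by name from gene-level counts before any filter on level, with earlier results of these data known. They are the ligands *Vegfa* and *Angpt1*, the receptors *Kdr*, *Flt1*, *Tek* and *Tie1*, the endothelial surface genes *Pecam1*, *Cdh5* and *Emcn*, and the transcriptional repressor *Bcl6b*. All 10 were among the 44556 genes listed, and all 10 had enough counts to be among the 15600 genes tested. RNA was taken from the parietal bone of newborn C57BL/6 mice, with 3 libraries from OsxCre mice and 3 from OsxCre;Stat3fl/fl littermates. Both groups carry the Osx-driven Cre, which is active mainly in osteoblast precursors, and the groups differ in the floxed *Stat3* alleles. Endothelial cells are therefore not the cells in which the Cre was meant to act, and each library holds the RNA of the whole bone piece with its vessels, marrow and attached muscle.

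Bone grows along its blood vessels. VEGF-A is released by osteoblasts, hypertrophic chondrocytes, muscle fibres and other cells, and it binds VEGFR2 (*Kdr*), the main signalling receptor of endothelium, and VEGFR1 (*Flt1*), which binds it tightly and limits the signal. Angiopoietin 1, from mural and mesenchymal cells, stabilises vessels through TIE2 (*Tek*), with TIE1 as an accessory receptor. PECAM1 and VE-cadherin (*Cdh5*) hold endothelial cells together, and endomucin (*Emcn*) together with PECAM1 marks the capillaries that accompany bone formation. In a bulk sample, fewer cells of a type and less RNA per cell cannot be told apart.

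The libraries held between 8193651 and 12080044 counts on genes, and levels are given as CPM, counts per 1000000 of a library size scaled by edgeR's TMM method. *Stat3* itself had 149.5, 134 and 141 CPM in the OsxCre libraries and 152, 154 and 155 CPM in those labelled OsxCre;Stat3fl/fl. The log2 fold change between genotypes (log2FC, positive where the label OsxCre;Stat3fl/fl is higher) was 0.12 with a standard error (SE) of 0.07 and an adjusted p of 0.442 in edgeR's fit, so the count over the whole gene was not lower under that label. The count does not separate the floxed exons from the others, and the genotype of each library is taken from its label. *Xist* had between 7333 and 12392 counts in each library, while *Ddx3y* and *Kdm5d* of the Y chromosome had 0 counts in all 6 and *Uty* and *Eif2s3y* had 1 count each in OsxCre;Stat3fl/fl library 2 and 0 elsewhere. The study describes its newborns as male, while high *Xist* with Y-linked genes at or near 0 is the pattern of female tissue.

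To ask whether the vessels of the bone or their growth signals differed after the deletion in osteoblasts, the genotypes were compared gene by gene with edgeR's quasi-likelihood test, adjusted over all genes tested. *Bcl6b* was downregulated in the libraries labelled OsxCre;Stat3fl/fl, and *Vegfa* and *Angpt1* were lower in all 3 of them without passing the adjusted test. The receptors and surface genes of endothelium did not pass the test in either direction. A log2FC above 0 was found for 7 of the 10 genes, where 50.7% of all genes tested lay below 0. Of the 7, *Kdr*, *Flt1* and *Cdh5* were close to 0, at 0.02, 0.01 and 0.03. An adjusted p under 0.05 was reached by 1 of the 10 genes, downward, where 1.26% of all genes tested were called, 0.481% lower and 0.776% higher. At an unadjusted p under 0.05, 3 of the 10 were lower and 2 higher, against 8.34% and 8.03% of all genes tested. Genotypes lay fully apart for 3 genes downward and 2 upward, against 12.2% and 10.8% of all genes tested. The median log2FC of the 10 genes was 0.02, beside 0 for all genes tested. Because the 10 genes were chosen with earlier results known, these shares are a description and not a test.

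**Figure D1:**
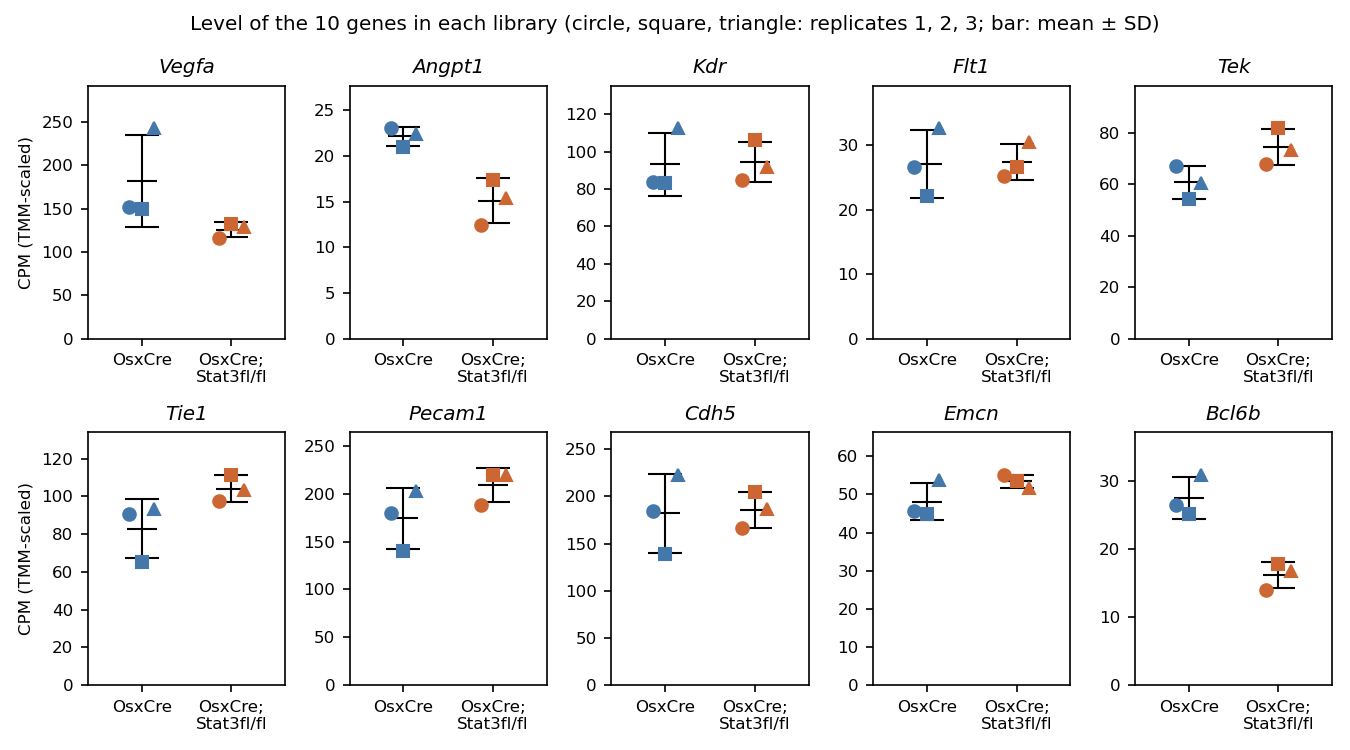
CPM (vertical axis, TMM-scaled, each panel from 0) of the 10 genes in the 3 OsxCre libraries (blue) and the 3 libraries labelled OsxCre;Stat3fl/fl (orange), with the mean and SD as bars. *Bcl6b*, *Vegfa* and *Angpt1* lie apart with the OsxCre libraries above, *Tek* and *Tie1* lie apart with the OsxCre libraries below, and the other 5 overlap.

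*Bcl6b* encodes a zinc finger repressor related to BCL6 that is enriched in endothelium. Its level was 26.4, 25.1 and 30.9 CPM in OsxCre and 14, 17.7 and 16.7 CPM under the label OsxCre;Stat3fl/fl. Every OsxCre value lay above every value of the other label, with means of 27.5 ± 3.03 and 16.1 ± 1.92 CPM (SD, n = 3 each). The log2FC was -0.77 (SE 0.13, 95% interval -1.08 to -0.46), with an adjusted p of 0.043 from edgeR's quasi-likelihood test. A two-sided exact permutation test on these CPM reached p = 0.1, the lowest value open to 3 libraries against 3. With any 1 of the 6 libraries left out, the log2FC stayed between -0.83 and -0.67 while the adjusted p rose to between 0.0763 and 0.159, so the call was lost in all 6 of these smaller fits. *Bcl6b* lies on chromosome 11 from 70224127 to 70229798 (RefSeq, GRCm38.p6), 30.7 Mb from *Stat3* on the same chromosome. Nearer to *Stat3* on that chromosome lies *Pecam1*, at 5.7 Mb.

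*Vegfa* was measured at 152, 149.9 and 243 CPM in the OsxCre libraries and at 116, 132 and 129 CPM in those labelled OsxCre;Stat3fl/fl. The genotypes did not overlap, and OsxCre library 3 stood well above the other OsxCre libraries. Its log2FC was -0.53 (SE 0.18, 95% interval -0.96 to -0.10), with an adjusted p of 0.212 and an unadjusted p of 0.0215 from edgeR. Without OsxCre library 3 the log2FC was -0.26 (adjusted p = 0.245), so that library carried much of the size of the difference. The same library was the highest of the 6 for 3 of 14 tested genes of the hypoxia response and for 3 of 7 cartilage genes. For the hypoxia genes, OsxCre;Stat3fl/fl libraries 2 and 3 were highest more often (4 and 5), and for cartilage its library 1 as often (3). OsxCre library 3 was also highest for 5 of 7 leukocyte and 4 of 5 tested erythroid genes. The share of all genes highest in it was not computed. Several cell types of the bone piece make *Vegfa*. Of the summed levels of muscle, osteoblast and cartilage genes, that of muscle lay apart between genotypes. The summed level of 12 skeletal muscle genes was between 31690 and 34000 CPM in OsxCre and between 36450 and 54460 CPM in libraries labelled OsxCre;Stat3fl/fl, with 9 genes higher, and *Myh3*, the embryonic myosin, upregulated and *Myh4*, a fast adult myosin, downregulated (log2FC values 1.71 and -3.61, adjusted p = 0.0204 and 3.87e-05 from edgeR). Of 11 osteoblast genes, 8 were lower and *Ibsp* was downregulated (log2FC -0.66, adjusted p = 0.0213). Their summed levels overlapped between genotypes (26280 to 34830 and 23660 to 29910 CPM). Most of that sum was *Col1a1* and *Col1a2*, with OsxCre means of 13020 and 13710 CPM. Taken singly, 2 of the 11 lay apart downward and 0 upward, against 12.2% and 10.8% of all genes tested. They were *Ibsp* and *Alpl* (log2FC of *Alpl* -0.54, adjusted p = 0.0578 from edgeR). Of 7 cartilage genes, 6 were higher and 0 were called, with summed levels of 1862 to 3244 CPM and 2819 to 3615 CPM. The part of these cell types in the *Vegfa* level was not tested.

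The other ligand, *Angpt1*, had 23.1, 21 and 22.4 CPM in the OsxCre libraries and 12.5, 17.4 and 15.4 CPM in those labelled OsxCre;Stat3fl/fl. The OsxCre values were close together and all lay above the others. The log2FC was -0.56 (SE 0.14, 95% interval -0.88 to -0.23, adjusted p = 0.113), and leaving out any 1 library gave values between -0.66 and -0.44. Its antagonist *Angpt2*, made by endothelium, had 31, 24.7 and 27.3 CPM against 30.5, 35.6 and 35.7 CPM, a log2FC of 0.29 (adjusted p = 0.268), with overlapping genotypes.

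The receptors of these ligands had levels that overlapped or lay slightly higher in the libraries labelled OsxCre;Stat3fl/fl. *Kdr* had 83.7, 83.2 and 113 CPM in OsxCre and 85.2, 106 and 91.7 CPM under the other label, a log2FC of 0.02 (95% interval -0.31 to 0.34). *Flt1* had 26.6, 22.1 and 32.6 CPM in OsxCre and 25.1, 26.5 and 30.4 CPM under the other label, with a log2FC of 0.01 (95% interval -0.35 to 0.37). For both VEGF receptors the OsxCre libraries spanned the whole range of the others, and the interval leaves room for a change of up to about these bounds in either direction. *Tek* was between 54.5 and 67.3 CPM in OsxCre and between 68 and 81.9 CPM in the libraries labelled OsxCre;Stat3fl/fl. Its log2FC was 0.29 (95% interval 0.05 to 0.54, adjusted p = 0.227 from edgeR), and the gap between the closest libraries of the genotypes was small beside the spread within each. *Tie1* had 90.5, 65.1 and 93.4 CPM against 97.5, 112 and 103 CPM, a log2FC of 0.33 (95% interval 0.01 to 0.65, adjusted p = 0.297), which was 0.18 without OsxCre library 2, the lowest library.

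Among the surface genes, *Pecam1* had 180.5, 139.8 and 203 CPM in OsxCre and 188, 219 and 220.2 CPM in the libraries labelled OsxCre;Stat3fl/fl. The log2FC of 0.26 (95% interval -0.06 to 0.59, adjusted p = 0.393) fell to 0.12 without OsxCre library 2. Platelets and leukocytes also carry *Pecam1*. The summed level of 7 platelet genes was 95.95 to 109.2 CPM in OsxCre and 118.1 to 129.1 CPM under the other label, with 0 of 5 tested called, and that of 7 leukocyte genes was 473.1 to 624.6 and 348.3 to 398 CPM. Of the leukocyte genes 5 were lower and 2 higher, with *S100a9* of neutrophils downregulated (log2FC -1.25, adjusted p = 0.0423 from edgeR), *S100a8*, its partner, at -1.17 (adjusted p = 0.0571) and the macrophage genes *Cd68* and *Csf1r* at 0.24 (adjusted p = 0.221) and 0.16 (adjusted p = 0.612). Both sums lay apart between genotypes, in opposite directions, and their part in the *Pecam1* level was not tested. *Cdh5*, which is restricted to endothelium far more closely, had 184, 139 and 223 CPM against 167, 205 and 186 CPM, a log2FC of 0.03 (95% interval -0.35 to 0.41). *Emcn* had 45.6, 45 and 53.7 CPM against 55.2, 53.4 and 51.8 CPM, a log2FC of 0.15 (95% interval -0.06 to 0.36, adjusted p = 0.464). For *Cdh5* and *Emcn* the genotypes overlapped.

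**Figure D2:**
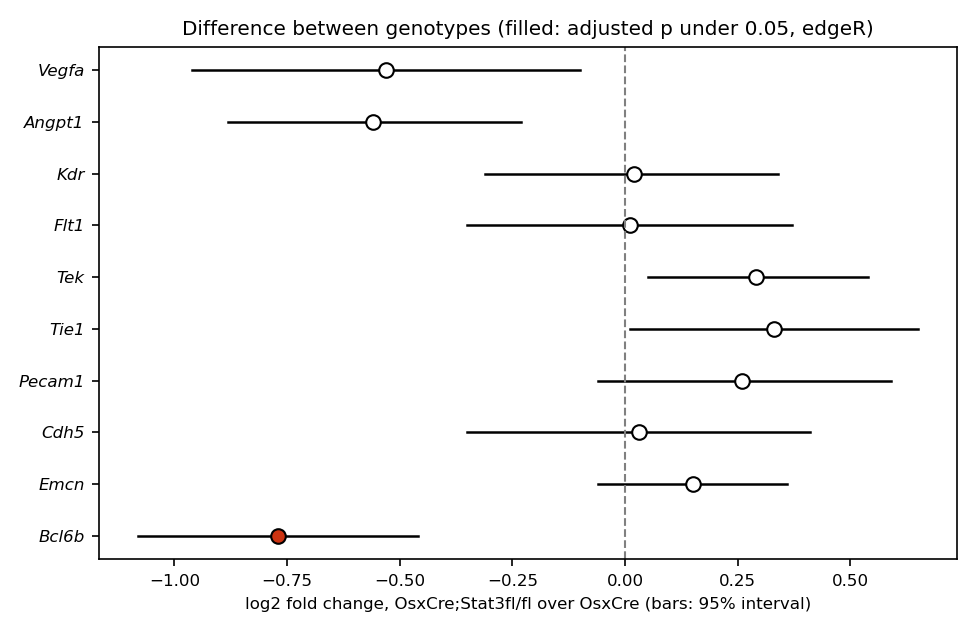
The log2 fold change (horizontal axis) of each of the 10 genes between the libraries labelled OsxCre;Stat3fl/fl and OsxCre, with its 95% interval from edgeR's fit as a bar. *Bcl6b* is filled as the gene with an adjusted p under 0.05, and the intervals of *Vegfa*, *Angpt1*, *Tek* and *Tie1* leave out 0 before adjustment.

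Compared with each other per kilobase of exon, *Cdh5*, *Vegfa* and *Pecam1* were the most abundant of the 10 genes in the OsxCre libraries, at 45.7 ± 10.6, 42.3 ± 12.4 and 40.4 ± 7.39 CPM per kilobase (SD, n = 3 each), and did not differ from each other beyond their spread. *Tie1*, *Tek* and *Kdr* followed at 16.9 ± 3.17, 12.9 ± 1.36 and 12.8 ± 2.32 CPM per kilobase, again without separation beyond the spread. *Emcn* had 8.90 ± 0.900, *Bcl6b* 7.38 ± 0.815, *Angpt1* 5.20 ± 0.253 and *Flt1* 2.34 ± 0.459 CPM per kilobase, and of these neighbours *Emcn* and *Bcl6b* lay within the sum of their SDs. In the libraries labelled OsxCre;Stat3fl/fl, *Vegfa* stood at 29.3 ± 1.93 CPM per kilobase, under *Pecam1* at 48.5 ± 4.21 and *Cdh5* at 46.7 ± 4.79. *Bcl6b* was there at 4.34 ± 0.515 CPM per kilobase, within the spread of *Angpt1* at 3.54 ± 0.580. The lengths are those of all annotated exons of a gene merged, and the lengths of the transcripts in use were not tested.

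Endothelial genes also varied between libraries of the same genotype. OsxCre library 2 was the lowest of the 6 libraries for 7 of the 10 genes and for 16 of 25 further endothelial genes, *Robo4*, *Egfl7*, *Vwf*, *Icam2* and *Nos3* among the 16, while it was the lowest for 17.4% of all genes tested. OsxCre library 3 was the highest for 5 of the 10 and for 10 of the 25. The geometric mean of the 25 genes was 48.28, 37.58 and 49.71 CPM in OsxCre and 41.75, 47.02 and 47.5 CPM under the label OsxCre;Stat3fl/fl. Their overall level thus varied more among the OsxCre libraries than between genotypes. Of these 25 genes, 13 were lower and 12 higher, with log2FC values from -0.29 to 0.43, a median of -0.01, and 0 called. At an unadjusted p under 0.05, 1 of the 25 was lower and 2 were higher. The most counted of them, *Cd34* (also on progenitor and stromal cells) and *Cd93*, had log2FC values of 0.07 (adjusted p = 0.821) and -0.28 (adjusted p = 0.369).

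**Figure D3:**
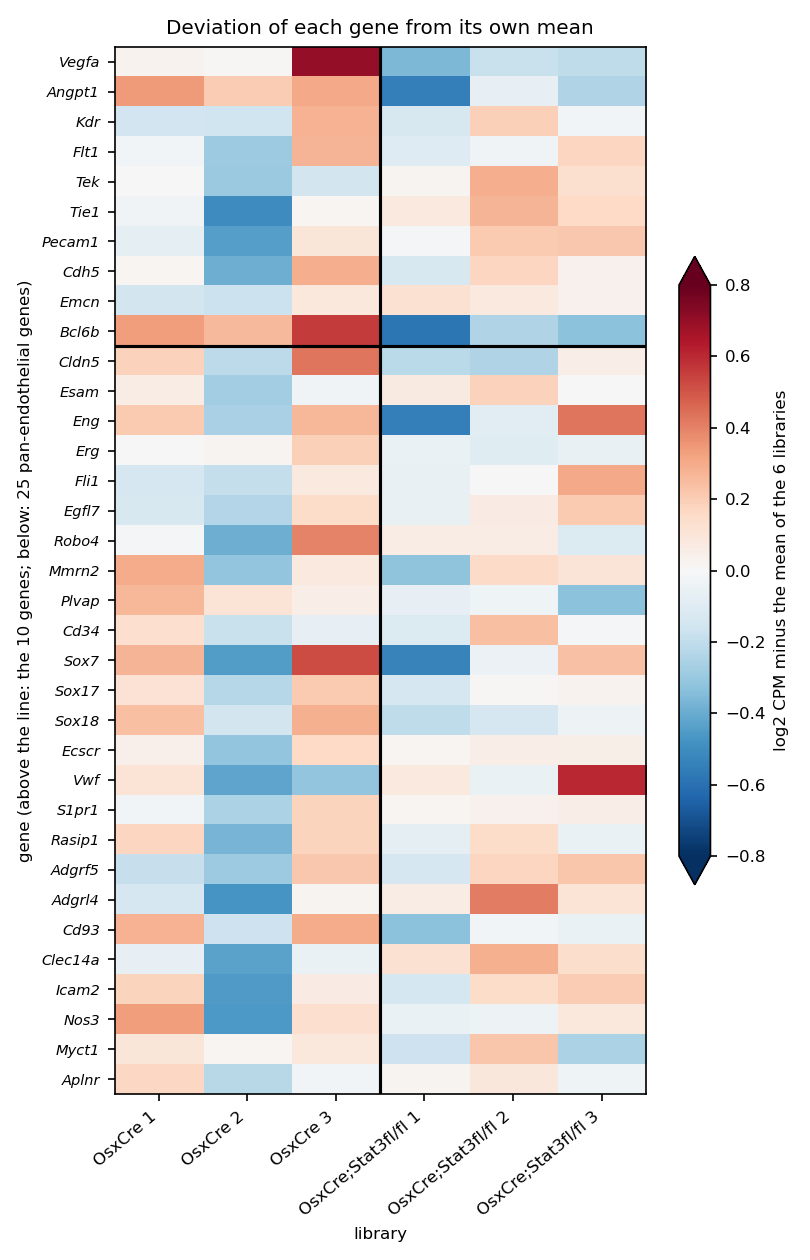
Deviation of each gene from its own mean over the 6 libraries (colour, log2 CPM) for the 10 genes (rows above the line) and 25 further endothelial genes (rows below it), by library (columns). OsxCre library 2 is blue in most rows, and *Bcl6b* and *Angpt1* are red in the 3 OsxCre libraries and blue in the 3 libraries labelled OsxCre;Stat3fl/fl.

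Because the endothelial level moved between libraries, each gene was also set against the mean log2 level of these 25 genes in its own library, a ratio taken within each library. *Bcl6b* lay at -0.87, -0.58 and -0.69 on this log2 scale in the OsxCre libraries and at -1.58, -1.41 and -1.51 in those labelled OsxCre;Stat3fl/fl. These ratios kept the genotypes apart, as did those of *Angpt1* (-1.07, -0.84 and -1.15 against -1.75, -1.44 and -1.63) and *Vegfa* (1.65, 2 and 2.29 against 1.48, 1.49 and 1.44). *Tie1* lay at 0.91, 0.79 and 0.91 against 1.22, 1.25 and 1.12, *Pecam1* at 1.9, 1.9 and 2.03 against 2.17, 2.22 and 2.21, and *Tek* at 0.48, 0.54 and 0.28 against 0.7, 0.8 and 0.62. These 3 genes were apart upward relative to the other endothelial genes, although *Pecam1* overlapped in CPM. The share of all genes tested that lies apart on this scale was not computed. *Kdr*, *Flt1*, *Cdh5* and *Emcn* overlapped on this scale. When the libraries were scaled to the 25 genes in edgeR's fit, an alternative chosen after the data were seen, *Bcl6b* had a log2FC of -0.79 with an adjusted p of 0.0735, *Tie1* of 0.33 with an adjusted p of 0.582 and *Pecam1* of 0.26 with an adjusted p of 0.737. The call of *Bcl6b* was lost in that fit, in which 36 genes were called lower in place of 75.

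The tested genes whose 6-library pattern was most like the average of the 8 endothelial genes (the 10 without the ligands) were *Nid2*, *Akap13*, *Chd1*, *Hspa12b* and *Dag1*. Their log2 deviations differed from that average by a root mean square of 0.034 to 0.04 over 6 libraries, among 10350 genes with a mean of at least 10 CPM. *Nid2* encodes nidogen 2, a basement membrane protein, and had 213, 169 and 229 CPM in OsxCre and 189, 224 and 208 CPM under the other label. *Hspa12b* encodes an HSP70-like protein enriched in endothelium and had 55.6, 45 and 62.9 CPM against 51.5, 57.2 and 53.9 CPM. Similar likeness was reached by *Akap13*, *Chd1* and *Dag1* (0.037, 0.038 and 0.04), and which cells express these genes was not tested. *Bcl6b* was the farthest of the 8 from their own average, at 0.415, against 0.078 for *Cdh5*, the nearest.

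In the other genes of the VEGF family, 0 of 7 were called, and 2 lay higher in every library labelled OsxCre;Stat3fl/fl. For these and the following lists, 1.26% of all genes tested were called, and 12.2% lay apart downward and 10.8% upward. *Pgf*, placental growth factor, a ligand of VEGFR1, had 16.9, 14 and 12.2 CPM in OsxCre and 19.4, 19.6 and 19.9 CPM under the other label, a log2FC of 0.45 (adjusted p = 0.172). *Vegfd*, a ligand of the lymphatic receptor VEGFR3 listed in the files as *Figf*, had 3.42, 3.16 and 4.44 CPM against 5.87, 6.85 and 5.83 CPM, a log2FC of 0.75 (adjusted p = 0.145). These genes were chosen after their values were seen. The most counted of the family, the co-receptor *Nrp2* and the ligand *Vegfb*, had log2FC values of 0.05 (adjusted p = 0.847) and -0.22 (adjusted p = 0.351). *Nrp1*, the co-receptor of VEGFR2, was counted 4 to 15 times per library and is too low here to be read. In the angiopoietin and TIE pathway, 0 of 7 further genes were called, with a median log2FC of -0.01, and the most counted, the angiopoietin-like genes *Angptl2* and *Angptl4*, had log2FC values of -0.29 (adjusted p = 0.26) and 0.02 (adjusted p = 0.974).

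Notch signalling picks the leading cells of a vessel sprout downstream of VEGF. In 12 genes of Notch signalling and of arterial and venous identity, 1 was called, and 3 lay apart downward and 0 upward. *Nrarp*, a feedback inhibitor that Notch induces, fell from 25, 19.5 and 24.4 CPM in OsxCre to 10.8, 11.9 and 13.2 CPM in the libraries labelled OsxCre;Stat3fl/fl. Its log2FC was -0.94 (SE 0.14, adjusted p = 0.0285 from edgeR), and the genotypes did not overlap. *Dll4*, the Notch ligand of sprouting endothelium, had 23.4, 23.8 and 23.4 CPM against 15.2, 19.3 and 19.7 CPM, a log2FC of -0.38 (adjusted p = 0.186), and was chosen after its values were seen. The most counted genes of the list, *Ephb4*, a venous receptor, and *Notch1*, each had a log2FC of 0.11 (adjusted p = 0.578 and 0.547). With 1 library left out, *Nrarp* kept its call in 1 of 6 fits, with log2FC values between -1.05 and -0.87.

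Among 14 other angiogenic and anti-angiogenic factors, 12 were tested, with 1 called lower and 1 higher, and 1 lay apart downward and 4 upward. *Apln*, the peptide apelin released by sprouting endothelium, fell from 32.9, 20.6 and 44.3 CPM to 9.34, 9.78 and 6.53 CPM, a log2FC of -1.93 (SE 0.29, adjusted p = 0.0279 from edgeR). This was the largest difference among the vascular lists, and the highest library labelled OsxCre;Stat3fl/fl lay under the lowest OsxCre library. The gene of the apelin receptor, *Aplnr*, had 122, 93.8 and 107 CPM against 111, 116 and 106 CPM, with overlap. *Ccn2*, a matrix-associated growth factor listed as *Ctgf*, rose from 116, 104 and 159.6 CPM to 244, 266 and 248 CPM, a log2FC of 0.99 (SE 0.15, adjusted p = 0.0285). Its relative *Ccn1* (listed as *Cyr61*) had 46.6, 46.2 and 84 CPM against 148, 194 and 122 CPM, a log2FC of 1.39 (adjusted p = 0.0564), and was chosen after its values were seen. It passed the threshold in 9 of 17 alternative fits, with limma-voom (0.0498) and DESeq2 (3.28e-07) among them, and missed it in 5 of the 6 that left out 1 library. The most counted, the anti-angiogenic *Thbs2* and *Serpinf1*, had log2FC values of 0.21 (adjusted p = 0.408) and -0.13 (adjusted p = 0.601). Also among the 4 apart upward were *Thbs1* and *Adamts1*, with log2FC values of 0.64 and 0.5 (adjusted p = 0.0998 and 0.103 from edgeR). *Apln* kept an adjusted p under 0.05 in 2 of 6 fits without 1 library and *Ccn2* in 1 of 6, and neither changed direction. *Apln* also missed the threshold with limma-voom, at an adjusted p of 0.0627.

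Hypoxia-inducible factors drive *Vegfa*, so 15 genes of that pathway were read beside it, of which 14 were tested. *Egln3*, a prolyl hydroxylase that these factors induce and that marks them for degradation, rose from 39.8, 32.1 and 35.5 CPM to 59.4, 67.6 and 70.2 CPM, a log2FC of 0.88 (SE 0.11, adjusted p = 0.0154 from edgeR). It was the 1 gene of the list that was called, and it kept its call in 5 of 6 fits without 1 library, the exception being the fit without OsxCre;Stat3fl/fl library 3 (adjusted p = 0.1). Of the 14, 10 were higher and 4 lower, 2 lay apart upward and 0 downward, with a median log2FC of 0.13. The most counted, *Ldha* and *Epas1*, had log2FC values of 0.14 (adjusted p = 0.657) and -0.12 (adjusted p = 0.809). The log2FC of *Egln3* was positive, and that of *Vegfa*, which did not pass the adjusted test, was negative. A link between these genes was not tested.

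**Figure D4:**
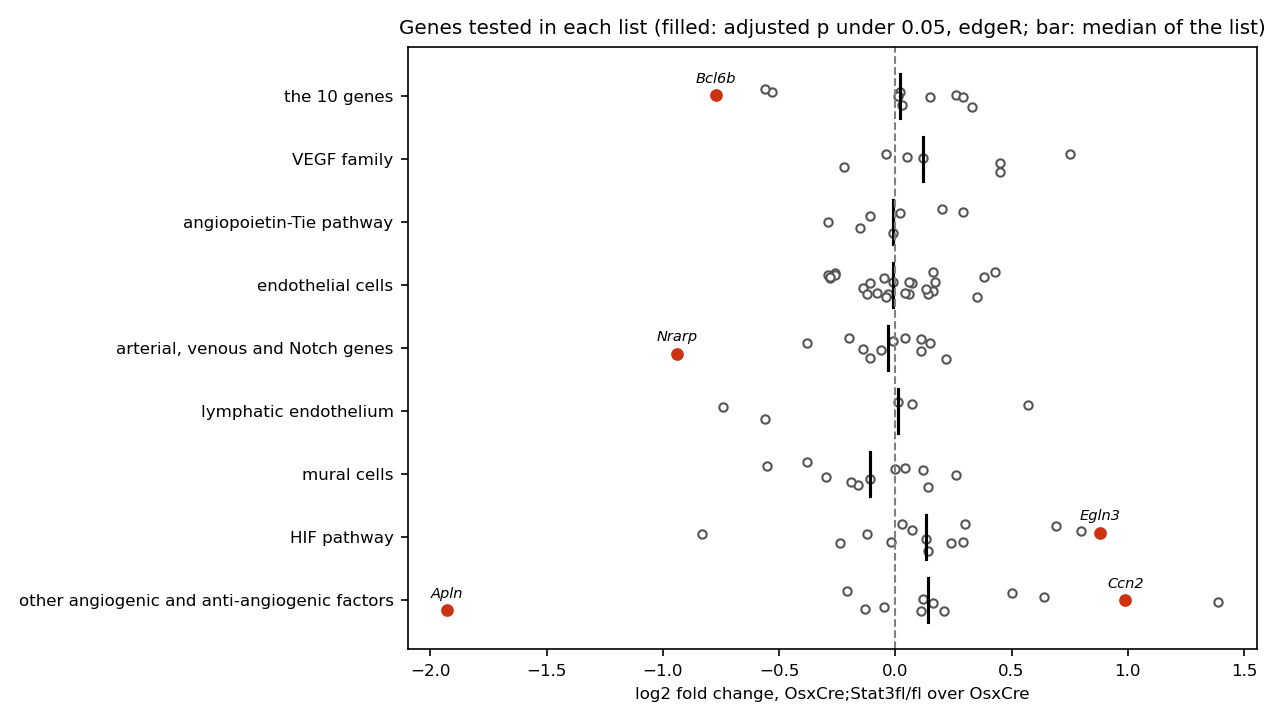
The log2 fold change (horizontal axis) of every tested gene of the 10 genes and of 8 vascular lists (rows), with the median of each list as a bar. The filled points are *Bcl6b*, *Nrarp*, *Egln3*, *Ccn2* and *Apln*, with an adjusted p under 0.05, and the medians lie between -0.11 and 0.14.

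Promoter sequence was available for 6 of the 10 genes, while *Pecam1*, *Cdh5*, *Bcl6b* and *Angpt1* had none and were not searched. The RefSeq windows of GRCm38.p6 reach from 250 bases before to 50 bases after a transcription start. The STAT motif TTCNNNGAA, which reads alike on both strands, was in 0 of the 7 windows of these 6 genes and in 8.3% of 32851 windows of all genes. The core of the hypoxia motif, ACGTG, was found in 1 of the 6 genes, in a *Vegfa* window that begins inside the gene, and in 19.6% of all windows. The ETS core GGAAG, a motif of the factors that keep endothelial identity, was found in 5 of the 6 genes and in 71.4% of all windows, both strands being searched. A match is a string of letters only, and these windows are short. The bases before the start are shown for *Vegfa*, a ligand with a negative log2FC, and *Tie1*, a receptor with a positive log2FC that holds the most ETS matches (7 in its window, of which 6 lie in the bases shown), with the matches to GGAAG or its reverse complement CTTCC in capitals, 5′ to 3′ on the strand of the gene. *Vegfa* is at chr17:46032378-46032627 and *Tie1* at chr4:118489850-118490099, both on the minus strand.
*Vegfa*: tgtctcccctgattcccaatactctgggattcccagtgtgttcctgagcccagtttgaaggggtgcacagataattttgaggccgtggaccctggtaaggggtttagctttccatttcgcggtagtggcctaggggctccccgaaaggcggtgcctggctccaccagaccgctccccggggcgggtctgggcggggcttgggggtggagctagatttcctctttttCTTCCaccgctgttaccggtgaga
*Tie1*: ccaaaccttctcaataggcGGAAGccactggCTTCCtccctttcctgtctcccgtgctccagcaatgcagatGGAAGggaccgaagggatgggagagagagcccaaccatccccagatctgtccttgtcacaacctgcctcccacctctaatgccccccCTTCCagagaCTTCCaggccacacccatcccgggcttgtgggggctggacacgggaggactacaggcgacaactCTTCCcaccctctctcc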

How the data were processed

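Polyadenylated RNA of parietal bone was sequenced from TruSeq libraries, 3 per genotype. The authors deposited raw counts per gene symbol. The submitters' notes name HISAT2 and GRCm38, the paper names mm9 and TopHat with Cufflinks, and the counting program is not given in the sources used here. Genotypes came from the labels, which name no batch, and the paper's methods describe the mice as littermates. Replicate pairs differed by 7.51 to 15.6 in chi-square per degree of freedom, so no library was a duplicate.

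Counts were fitted with edgeR 4.0.16 in R 4.3.3: filterByExpr (minimum count 10, total 15), TMM, quasi-likelihood test, two-sided, Benjamini-Hochberg over 15600 genes. DESeq2 1.42.0 and limma 3.58.1 (voom) were alternatives, and the fits were tested on simulated counts. Standard errors are the log2 fold change over the square root of F. The paper's Cuffdiff comparison was not repeated. CPM use TMM-scaled totals, and 3 counts correspond to 0.248 to 0.366 CPM by library total. Lengths are merged GENCODE exons (NCBIM37), used without coordinates. The floors cover counting error only. The paper's methods give 3 mice per genotype, and p-values measure the spread between these libraries.

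The 10 genes and all lists were chosen with earlier results of these data known. Named are *Stat3*, the 10 genes, called genes of each list, the 2 most counted genes of 7 vascular lists, and the 5 genes of nearest pattern. Other genes were chosen after their values were seen. Of these, *Pgf*, *Vegfd*, *Angpt2*, *Dll4*, *Ccn1*, *Thbs1*, *Adamts1*, *Aplnr*, *Nrp1*, *Rgs5* and *Kcnj8* belong to vascular lists. Chosen likewise were *S100a8*, *Cd68*, *Csf1r*, *Alpl*, *Col1a1*, *Col1a2*, the sex-linked and globin genes, and the endothelial examples *Robo4*, *Egfl7*, *Vwf*, *Icam2* and *Nos3*. Lists covered VEGF, angiopoietin, endothelial, Notch, lymphatic, mural, HIF, other angiogenic, platelet, leukocyte, erythroid, muscle, osteoblast and cartilage genes.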

Additional observations from a re-analysis of the deposited data

How the results depend on the processing

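The counts of genes called depended on the fit. Of all genes tested, 75 were called lower and 121 higher, and 114 were lower with library totals, 5451 with no scaling, and 36 with scaling to the endothelial genes, a setting added after the data were seen. With no filter 178 were lower and 250 higher, and the DESeq2 Wald test called 231 and 307. Leaving out 1 library gave 5 to 36 lower and 7 to 67 higher, the fewest without OsxCre;Stat3fl/fl library 3. The labels give both genotypes replicate numbers 1 to 3, but same-numbered libraries did not deviate together (correlations -0.101, -0.528 and -0.0686). Whether same-numbered libraries share a litter cannot be told from 3 libraries per genotype. With the replicate block 1 gene was lower and 0 higher, and the adjusted p was 0.14 for *Bcl6b*, 0.122 for *Nrarp*, 0.0981 for *Egln3*, 0.106 for *Ccn2* and 0.14 for *Apln*. *Bcl6b*, *Vegfa* and *Angpt1* kept a negative and *Tek*, *Tie1* and *Pecam1* a positive log2 fold change in every setting with scaling. With no scaling the median of all genes moved to -0.38 and that of the 10 genes from 0.02 to -0.37, and signs turned for *Stat3* (-0.26), *Kdr* (-0.38), *Flt1* (-0.38), *Pecam1* (-0.13), *Cdh5* (-0.37), *Tek* (-0.09), *Tie1* (-0.06), *Emcn* (-0.23), *Nrp2* (-0.33), *Angptl4* (-0.36), *Cd34* (-0.31), *Ephb4* (-0.27), *Notch1* (-0.27), *Acta2* (-0.34), *Pdgfrb* (-0.12), *Ldha* (-0.25), *Thbs2* (-0.17) and *Angpt2* (-0.08), while *Vegfa* and *Angpt1* were both called at -0.93 (adjusted p = 0.0203 and 0.0105). With library totals signs turned for *Kdr* (-0.03), *Flt1* (-0.03), *Cdh5* (-0.01), *Angptl4* (-0.03) and *Acta2* (-0.02). Leaving out 1 library moved *Kdr* over -0.07 to 0.18, *Flt1* over -0.12 to 0.17, *Cdh5* over -0.13 to 0.2, *Nrp2* over -0.01 to 0.12, *Angptl4* over -0.11 to 0.17, *Cd34* over -0.03 to 0.17, *Acta2* over -0.08 to 0.2, *Epas1* over -0.23 to 0.1 and the median of the 10 genes over -0.09 to 0.19. In these 6 fits *S100a9* was called in 0, *Myh3* and *Ibsp* in 2 each and *Myh4* in 6. The causes were not tested. With 3 libraries per genotype the 95% intervals of the 10 genes remain wide.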

Other observations

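Mural cells wrap the vessels. Of 11 mural genes, 6 were lower and 5 higher, with 0 called and a median log2 fold change of -0.11, and the most counted, *Acta2* and *Pdgfrb*, had log2 fold changes of 0.04 (adjusted p = 0.94 from edgeR) and 0.26 (adjusted p = 0.286). At an unadjusted p under 0.05, 2 of the 11 were lower and 1, *Pdgfrb*, was higher. The 2 lower were *Rgs5* and *Kcnj8*, with log2 fold changes of -0.55 and -0.38 (adjusted p = 0.209 and 0.246 from edgeR). Of 5 genes of lymphatic endothelium, 2 were lower, 3 higher and 0 called, with 1 on each side at an unadjusted p under 0.05. In the erythroid list, *Hbb-b1* and *Hbb-b2* had 0 counts in each library, 0 of the 5 genes tested were called, 1 was lower at an unadjusted p under 0.05, and the summed level was 2958 to 4101 CPM in OsxCre and 1516 to 2754 CPM in libraries labelled OsxCre;Stat3fl/fl.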
